A study of Mus musculus with 4 samples.

Results

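The sites described here are the adenosines listed inside 4 mouse genes of the S-adenosylmethionine (SAM) circuit, Mat2a, Mat2b, Mettl16 and Ahcy, and listed on the strand of the gene. They number 316 of the 881997 different sites in the 4 deposited lists: 105 in Mat2a, 82 in Mat2b, 106 in Mettl16 and 23 in Ahcy. The genes were chosen by name with earlier results from the same lists known, in which Mat2a kept its sites without METTL3, and the sites were selected on presence in a list. The presence or absence of single sites is therefore described with no test. Counts of listed sites per gene are given with an exact permutation p-value. With 2 libraries against 2 it cannot fall below 0.333, so no conclusion is drawn from it.

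GLORI was used on day 4 retinal organoids, tissue cultured from mouse pluripotent stem cells. GLORI deaminates unmodified adenosine so that it is read as G, while N6-methyladenosine (m6A) resists and is read as A. The level of a site is the share of its reads with A. The 4 libraries were 2 of the Rx:GFP wild-type (WT) line, which carries a fluorescent reporter of the eye field gene Rax, and 2 of a Mettl3 knockout (KO) line that also carries Rx:GFP. The growth protocol gives the KO line a doxycycline-inducible HA-METTL3, and no addition of doxycycline is recorded. Both genotypes were grown in the same GMEM-based medium with KSR and 0.1 µM AGN, and all 4 libraries have the same batch label. Whether replicates came from separate cultures or clones is not stated, so each p-value below measures only the spread between these samples, which may be technical.

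As background, the MAT2A protein makes SAM, the methyl donor of m6A, from methionine and ATP, and MAT2B is its regulatory subunit. METTL16 is a methyltransferase that acts without METTL3. It methylates the U6 spliceosomal RNA and adenosines in hairpins of the 3′ untranslated region of the Mat2a transcript, and its action on those hairpins is part of how cells match Mat2a mRNA to their SAM supply. AHCY hydrolyses S-adenosylhomocysteine, the product that SAM leaves after giving up its methyl group and an inhibitor of methyltransferases. METTL3 carries the active site of the enzyme complex that writes most m6A in mRNA.

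Each list held 215850 to 288516 sites, with a median coverage of 38 to 41 reads. No listed site had fewer than 15 reads, fewer than 5 reads with A, a level under 0.1 or a deposited p-value over 0.004. A site missing from a list failed at least 1 of these limits, and the lists do not tell a low level from thin coverage. The targeted gene Mettl3 had 18 and 15 listed sites in the WT and 20 and 21 in the KO. Coverage of Mettl3 was 1.01 and 0.801 times the median gene in the WT and 1.16 and 1.04 times in the KO (limma, log2 difference 0.29 ± 0.18 (SE), adjusted p = 0.349), so it was not called. Across the series, 81.8% of the 28686 sites listed in both WT libraries were in neither KO list. The WT lists themselves, of 227298 and 288516 sites, shared only those 28686, and 91.9% of all 881997 sites were in 1 list. Eye field and early neural markers differed between the genotypes. Of 8 such genes, 5 had coverage in all 4 libraries, and Six3, Lhx2 and Sox2 were called lower in the KO. The summed coverage of those 5 was 37.0 and 39.5 median genes in the WT and 15.1 and 13.6 in the KO, and Rax had 20 and 35 listed sites in the WT and 0 in both KO libraries. Six6 had no listed site in any library. Of 5 pluripotency markers 2 had coverage in all 4 libraries, with sums of 3.09 and 3.71 in the WT and 2.33 and 1.87 in the KO, and Pou5f1 was called lower. None of 7 mesoderm and endoderm markers and 1 of 3 neural crest markers were listed in all 4 libraries. The part that these cell type differences play in the values below was not tested.

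Mat2a (ENSMUSG00000053907) spans 6760 bases on the minus strand, at chr6:72409782-72416541 in the coordinates of the lists. The build of the lists is not GRCm38, although the submitters' processing notes name mm10, and no genome of their build was used here, so the bases around each site were not read and sites are not assigned to hairpins, exons or untranslated regions. Mat2a had 36 and 38 listed sites in the WT libraries and 23 and 37 in the KO libraries. The WT mean was 37.0 ± 1.41 (SD, n = 2) and the KO mean 30.0 ± 9.90 (SD, n = 2). The second KO library was inside the WT range and the first was below it (exact permutation test, two-sided, p = 0.667, where the smallest possible p is 0.333). Counting only sites with a level of at least 0.2 gave 12 and 13 in the WT and 9 and 17 in the KO, and turned the mean difference from -7.0 to 0.5.

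Of the 105 Mat2a sites, 91 were in 1 list, 5 in 2 lists, 3 in 3 lists and 6 in all 4 lists. The share in 1 list was 86.7%, beside 91.9% of all sites in the series. The WT libraries shared 9 sites. Both KO lists held 6 of these, the second KO list alone held the other 3, and none was missing from both KO lists. All 9 lay within the last 1451 bases of the gene. In the last 1500 bases the libraries had 17 and 18 listed sites in the WT and 14 and 21 in the KO. The 6 sites in all 4 lists were separated, from the 3′ end inwards, by 219, 115, 68, 22 and 873 bases.

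**Figure D1:**
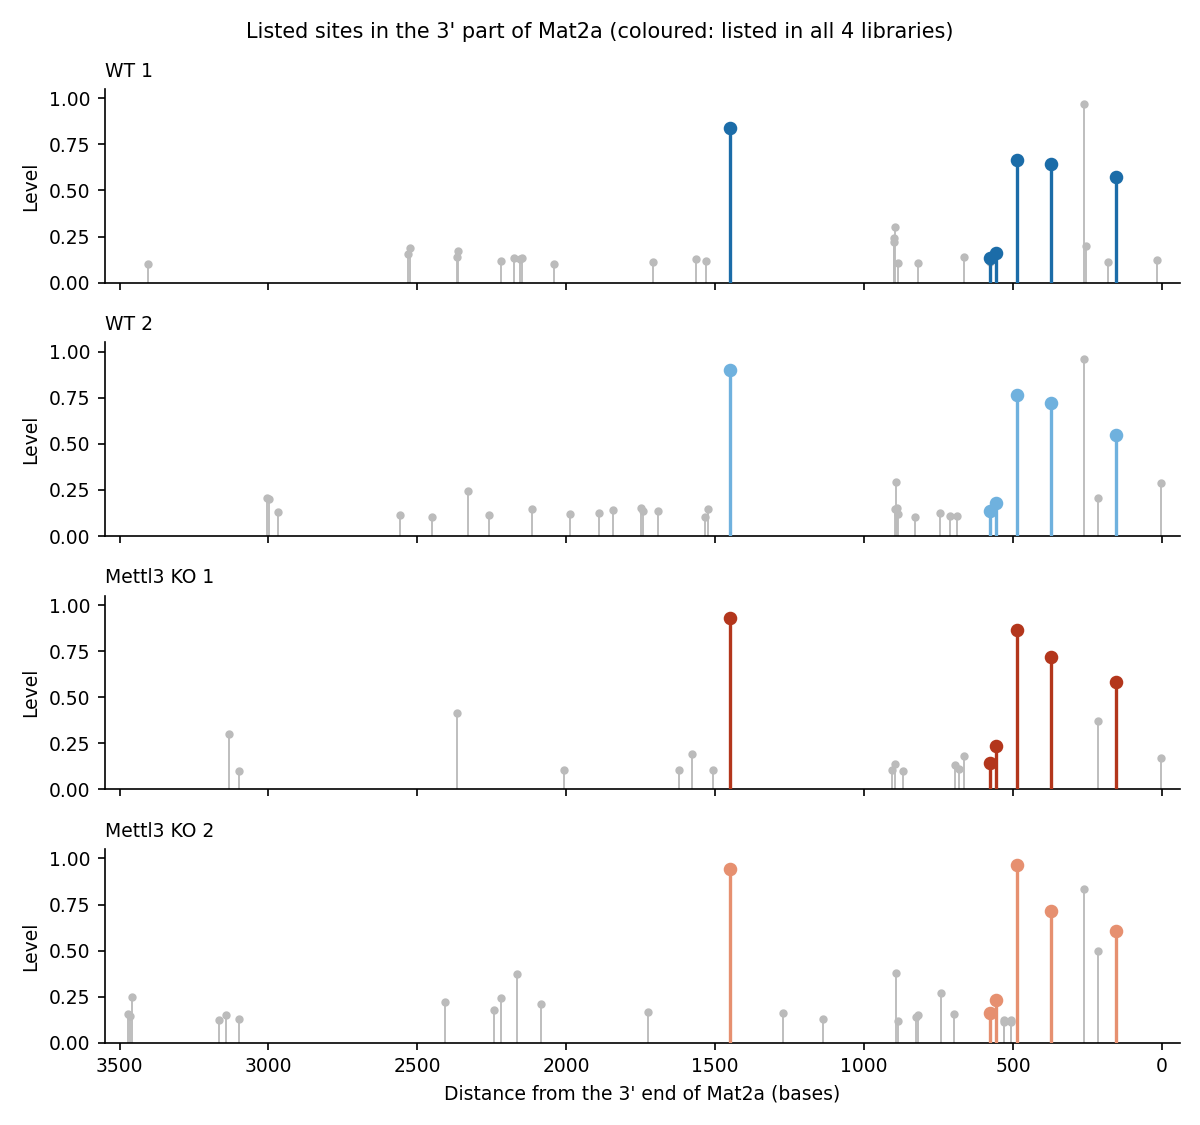
Level of each listed site in the 3′ part of Mat2a by its distance from the 3′ end of the gene in bases, 1 panel per library; coloured stems are the 6 sites listed in all 4 libraries and grey stems the others. The coloured stems stand at the same 6 positions in the WT and the KO, and most grey stems are low and differ from library to library.

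Among the 6, 4 had a mean level of at least 0.5 in both genotypes. They are described from the 3′ end inwards. At position 72409936, 154 bases from the 3′ end, the level was 0.575 and 0.548 in the WT libraries and 0.583 and 0.608 in the KO libraries, from 546, 608, 451 and 324 reads. The WT mean was 0.561 ± 0.0194 (SD, n = 2) and the KO mean 0.596 ± 0.0176 (SD, n = 2). Both KO levels were above both WT levels, the Wilson 95% intervals of all 4 libraries overlapped (0.533 to 0.616 and 0.508 to 0.587 in the WT, 0.537 to 0.628 and 0.554 to 0.660 in the KO), and the difference did not pass the test (edgeR, log2 odds ratio 0.20, adjusted p = 0.911).

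At position 72410155, 373 bases from the 3′ end, the level was 0.643 and 0.720 in the WT and 0.717 and 0.714 in the KO. This site was deeply read, with 1680 and 2010 reads in the WT and 1569 and 1092 in the KO. The KO levels lay between the WT levels (edgeR, log2 odds ratio 0.23, adjusted p = 0.867), and the sign of the difference turned when the first WT library was left out.

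At position 72410270, 488 bases from the 3′ end, the level was 0.666 and 0.765 in the WT and 0.863 and 0.966 in the KO, from 1526, 2467, 1427 and 1307 reads. The groups did not overlap, and the libraries of each genotype also stood apart from each other beyond counting error. The Wilson 95% intervals were 0.642 to 0.689 and 0.748 to 0.782 in the WT and 0.845 to 0.880 and 0.954 to 0.974 in the KO. The mean was 0.716 ± 0.0704 (SD, n = 2) in the WT and 0.915 ± 0.0723 (SD, n = 2) in the KO, the widest difference of the 6 sites, 0.199. In edgeR the log2 odds ratio was 2.18 with an adjusted p of 0.199 over the 1557 sites tested, so it was not called.

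At position 72411233, 1451 bases from the 3′ end and apart from the other 5 sites, the level was 0.836 and 0.900 in the WT and 0.931 and 0.945 in the KO, from 829, 1316, 871 and 578 reads. The group means were 0.868 ± 0.0451 and 0.938 ± 0.0096 (SD, n = 2 each). Both KO libraries were above both WT libraries, with a log2 odds ratio of 1.14 that did not pass the test (edgeR adjusted p = 0.223).

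The other 2 of the 6 sites had low levels, close together. Position 72410338, 556 bases from the 3′ end, had levels of 0.160 and 0.177 in the WT and 0.237 and 0.231 in the KO, from 948, 1148, 746 and 515 reads. The groups did not overlap and the replicates lay close to each other, with means of 0.169 ± 0.0117 and 0.234 ± 0.0044 (SD, n = 2 each, edgeR log2 odds ratio 0.59, adjusted p = 0.290). Position 72410360, 578 bases from the 3′ end, had levels of 0.136 and 0.133 in the WT and 0.142 and 0.159 in the KO, from 1302, 1686, 1081 and 722 reads. Its KO levels were above its WT levels by 0.0162 in the mean (edgeR adjusted p = 0.869).

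The remaining 3 sites shared by the WT libraries were missing from the first KO list alone. Position 72410044, 262 bases from the 3′ end, had the highest WT levels of the 9 sites, 0.968 and 0.960 from 155 and 224 reads, and a level of 0.836 from 110 reads in the second KO library. In the first KO library its expected coverage, scaled from the other libraries by gene coverage, was 128 to 161 reads. Position 72410358 had levels of 0.110 and 0.124 in the WT and 0.163 in the second KO library, from 1249, 1649 and 713 reads, with 1028 to 1074 reads expected in the first KO library. Its WT levels lay just above the list minimum, so a level slightly lower would leave it unlisted at any depth. Position 72410668, 886 bases from the 3′ end, had levels of 0.108 and 0.121 in the WT and 0.120 in the second KO library, from 111, 182 and 125 reads, and was likewise just above the minimum.

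**Figure D2:**
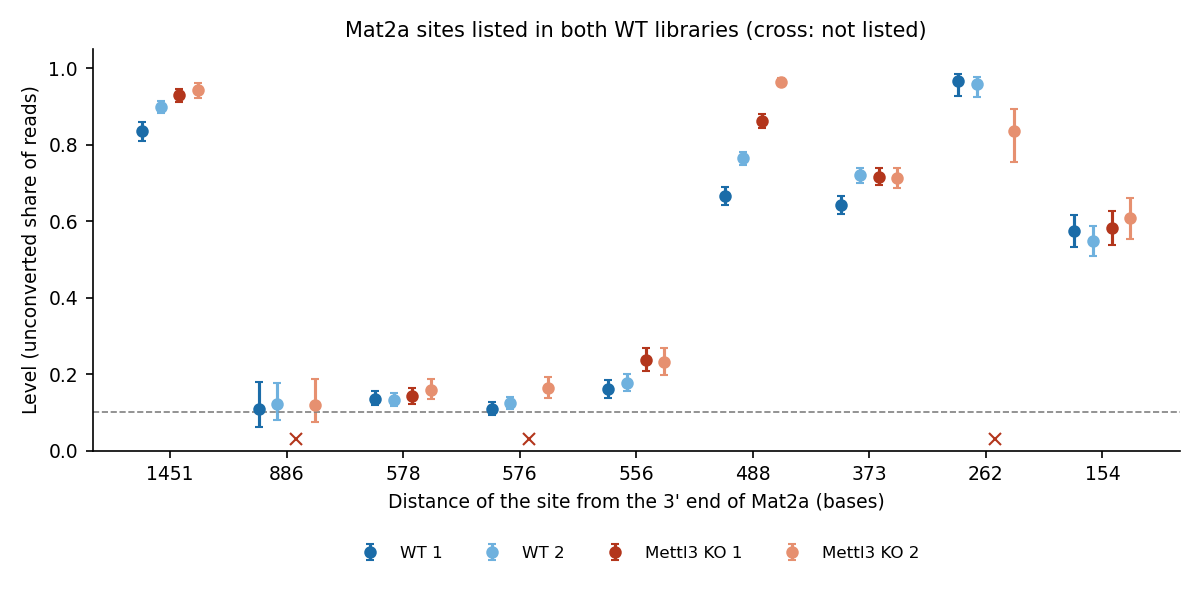
Level (share of reads left unconverted, 0 to 1) in each library at the 9 Mat2a sites listed in both WT libraries, ordered by distance from the 3′ end of the gene in bases. Points are single libraries, bars are Wilson 95% intervals, crosses mark a site missing from that list and the dashed line is the list minimum of 0.1; at 488 bases the 4 libraries run from 0.666 to 0.966, and the first KO library lacks 3 of the 9 sites.

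Both KO levels were above both WT levels at 5 of the 6 Mat2a sites, all but position 72410155. Over the 1557 sites tested across the series, those in all 4 lists with at least 20 reads in each, 17.0% had this order. The share was 8.25% of the 291 tested sites with a mean WT level of at least 0.5, and the opposite order held at 19.9% of the 1557. The 6 sites share their libraries and their transcript, so they are not independent of each other. Of the 1557 sites, edgeR called 2.57% lower in the KO (40 sites) and 0.0% higher, with 90 lower and 30 higher at an unadjusted p under 0.05. Higher calls numbered 1 by limma on log2 odds and 51 by Fisher's exact test on counts summed over replicates. The edgeR test called none of the 6 Mat2a sites in either direction. Fisher's test, which leaves out the spread between replicates, called positions 72410270, 72410338 and 72411233 higher in the KO. The median difference of the 6 was 0.0499 (KO minus WT), beside a median of 0 over all tested sites. The other 3 genes had no site among the 1557.

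Sites that were high in the WT and remained listed without METTL3 were scarce elsewhere. Among sites shared by the WT libraries with a mean WT level of at least 0.5, 4 of 5 in Mat2a (80.0%) were in both KO lists and 1, position 72410044, was in a single KO list. Outside Mat2a, 367 of 6824 (5.38%) were in both KO lists and 5592 (81.9%) in neither. A second count, added after the data had been seen, took only sites with at least 100 reads expected in both KO libraries, which leaves out position 72410044. That position fell short of 100 expected reads only in the second KO library, which lists it. It did not fall short in the first KO library, which lacks it. An expected coverage needs a protein-coding gene with a gene value in all 4 libraries. Sites outside such genes were left out at any depth, so this count differs from the first in more than coverage. In it 4 of 4 Mat2a sites were in both KO lists. Outside Mat2a it was 18 of 976 (1.84%, Wilson 95% interval 1.17% to 2.90%), and 839 of 976 (86.0%) were in neither KO list. With the same expected coverage and WT levels of 0.2 to 0.5, 5.36% of 1941 other sites were in both KO lists. Below 0.2, where Mat2a had 2 of 3 sites in both KO lists and 1 in a single KO list, the share of the 2434 others was 13.8%. Across all WT levels 6 of 7 Mat2a sites with that expected coverage were in both KO lists.

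**Figure D3:**
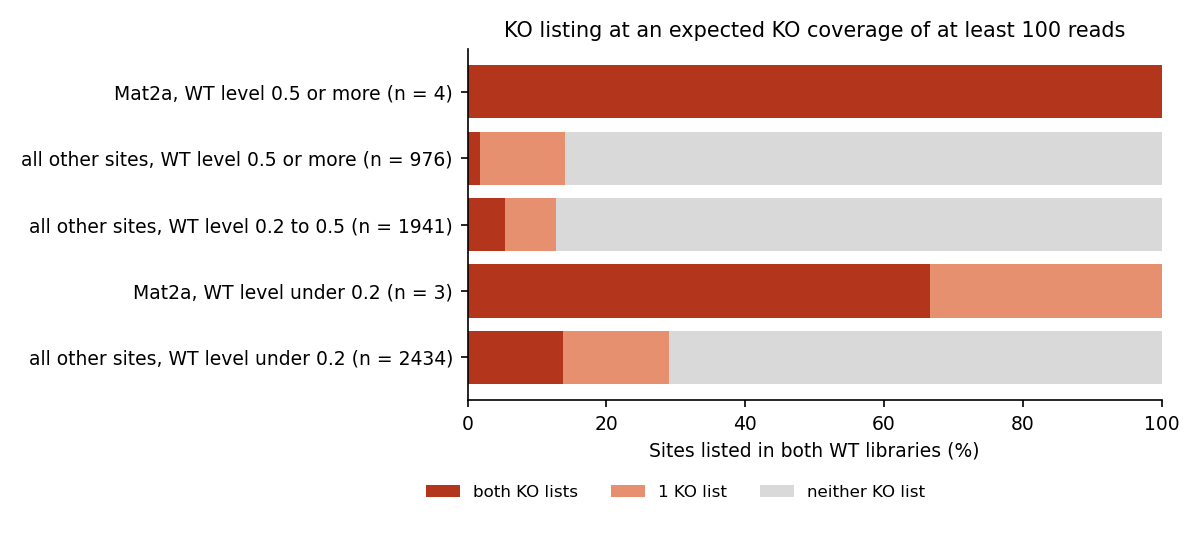
Share (%) of sites listed in both WT libraries that were in both, 1 or neither of the KO lists, at an expected KO coverage of at least 100 reads, for Mat2a and for all other sites by mean WT level. Only sites in protein-coding genes with a gene value in all 4 libraries have an expected coverage here, so the rest are not plotted. The 4 high Mat2a sites with that expected coverage were in both KO lists, against 18 of the 976 other sites. A further high Mat2a site, not plotted, fell short of that expected coverage only in the second KO library, which lists it. The first KO list, where it did not fall short, lacks it. Without the limits on coverage and gene value the counts were 4 of 5 and 367 of 6824.

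Counted by gene, 1707 genes had at least 5 sites shared by the WT libraries, and Mat2a was the 1 gene among them with no such site missing from both KO lists. It was also the 1 protein-coding gene with a gene value that had 6 or more sites in all 4 lists. Of 624 such genes with any site in all 4 lists, 5 had at least 4. At tested depth, 10 sites with a gene value, in 7 protein-coding genes, had a mean level of at least 0.5 in both genotypes. Of these 4 were in Mat2a, and no other gene had more than 1. This count leaves out sites in protein-coding genes that carried a chromosome-wide coverage value. Examples are a site in Atl3 (0.957 in the WT and 0.998 in the KO) and a site in Col6a6 (0.993 and 0.992). These counts describe the pattern for which Mat2a was chosen. Of the 291 tested sites with a mean WT level of at least 0.5, 75.3% were also at 0.5 or more in the KO. Most of these carried a chromosome-wide coverage value in the lists, given to sites that the authors' tables tie to no gene value: 179 such sites, against 40 with a gene value.

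**Figure D4:**
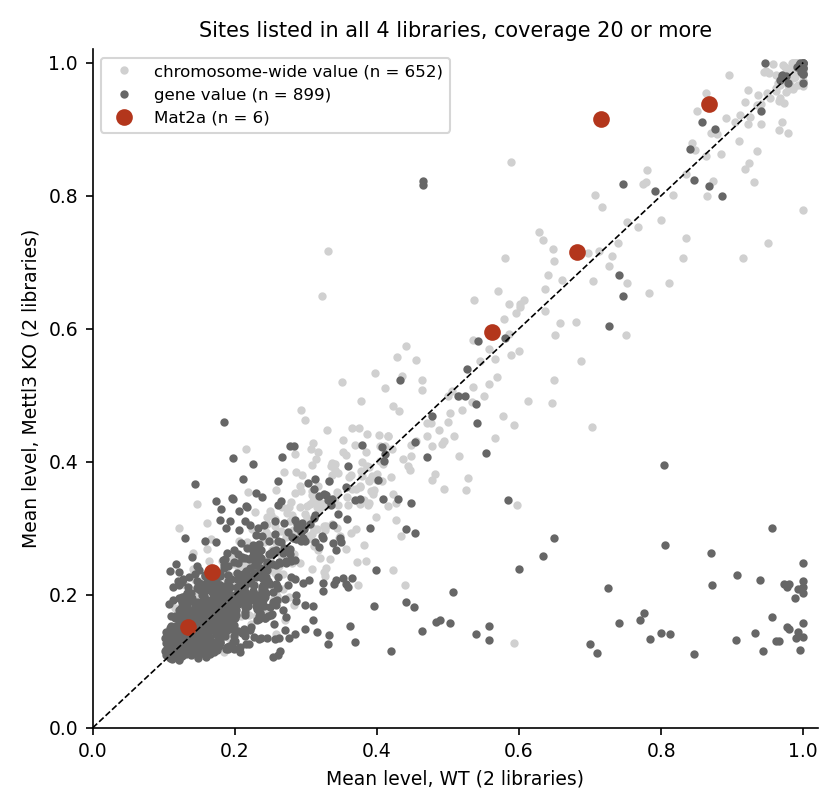
Mean level in the 2 KO libraries (vertical, 0 to 1) against mean level in the 2 WT libraries (horizontal, 0 to 1) for the 1557 sites in all 4 lists with at least 20 reads in each; the dashed line marks equal levels. The 6 Mat2a sites lie on or above the line, the farthest from it at 0.716 in the WT and 0.915 in the KO, while many sites with a gene value and a WT level near 1 lie below 0.3 in the KO.

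The other Mat2a sites were mostly low, and most were in a single list, like 91.9% of all sites in the series. The 91 sites in a single list comprised 52 in a WT list and 39 in a KO list, with a median level of 0.144 and a median coverage of 92 reads. Of the 36 read at least 100 times, 1 had a level of at least 0.3 and none reached 0.5. Both KO lists held 1 site that neither WT list had, position 72412880, with levels of 0.100 and 0.128 from 249 and 86 reads, at or just above the list minimum. The Mat2a gene values put overall conversion at 96.6% and 96.5% in the WT and 96.6% and 95.8% in the KO, lowest in the second KO library. How methylated reads enter this value is not stated. Opposite-strand RNA of the locus, from which the antisense transcript Particl is annotated, gave 1 listed site in the first WT library and none in the other 3.

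Mat2b (ENSMUSG00000042032, minus strand, chr11:40570141-40586030) encodes the regulatory subunit of the same enzyme. It had 30 and 24 listed sites in the WT and 16 and 23 in the KO. The means were 27.0 ± 4.24 and 19.5 ± 4.95 (SD, n = 2 each), and both KO counts were below both WT counts (exact permutation test, two-sided, p = 0.333, the smallest possible). The share of all genes with this order of counts was not computed, so nothing is concluded from it. The groups overlapped when only sites with a level of at least 0.2 were counted (12 and 11 against 2 and 14) and at a deposited adjusted p of at most 0.001 (24 and 22 against 14 and 23). Of its 82 sites, 73 were in 1 list (89.0%, beside 91.9% of all sites in the series) and none was in all 4.

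The WT libraries shared 4 Mat2b sites, of which 3 were in neither KO list and 1 was in the second. Position 40570592, 451 bases from the 3′ end, had levels of 0.119 and 0.125 from 303 and 312 reads, where at least 258 and 168 reads were expected in the KO libraries. Position 40571012 had levels of 0.185 and 0.167 from 81 and 72 reads, and position 40578494 had 0.110 and 0.131 from 82 and 84 reads. At these low levels a small decrease takes a site below the minimum of 0.1. The fourth site, position 40570865, was the highest of them, at 0.388 and 0.486 in the WT from 67 and 74 reads and 0.237 in the second KO library from 38 reads. In the first KO library, 58.4 to 65.6 reads were expected there and the site was not listed. A site in 3 lists, position 40570490, had a level of 0.104 in the second WT library and 0.146 and 0.116 in the KO, from 414, 492 and 293 reads, so it was in both KO lists and 1 WT list. Position 40575576 was in both KO lists and neither WT list, at 0.188 and 0.205 from 117 and 39 reads. No Mat2b site in more than 1 list reached a level of 0.5 in any library.

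Mettl16 (ENSMUSG00000010554, plus strand, chr11:74661656-74719351), the methyltransferase of the circuit, is the longest of the 4 genes, with 57696 bases against 6760 for Mat2a. It had 28 and 37 listed sites in the WT and 18 and 29 in the KO, with overlapping groups (means 32.5 ± 6.36 and 23.5 ± 7.78, SD, n = 2 each, exact permutation test, two-sided, p = 0.667). Of its 106 sites 101 were in a single list (95.3%, beside 91.9% of all sites in the series), at a median coverage of 29 reads. No library listed a site in the last 1500 bases of the gene. The WT libraries shared 1 site, position 74708434, with levels of 0.438 and 0.294 from 16 and 51 reads. It was in neither KO list, where as few as 21.2 and 20.3 reads were expected, so a low level and thin coverage cannot be told apart there. The KO libraries shared 1 site that the WT lacked, position 74708719, at 0.326 and 0.162 from 43 and 74 reads. The 1 site in 3 lists, position 74694717, was at 0.306 in the first WT library and 0.179 and 0.361 in the KO, from 36, 39 and 36 reads.

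Ahcy (ENSMUSG00000027597, minus strand, chr2:154901230-154916417), whose product clears S-adenosylhomocysteine, had 4 and 4 listed sites in the WT and 7 and 8 in the KO. The KO counts were above the WT counts, with means of 4.0 ± 0.0 and 7.5 ± 0.707 (SD, n = 2 each, exact permutation test, two-sided, p = 0.333, the smallest possible). How many of all genes had this order of counts was not computed either, so nothing is concluded from it. None of the 23 sites was in more than 1 list, beside 91.9% of all sites in the series that were in 1 list. Their coverage was 17 to 44 reads and their levels 0.119 to 0.962, so no Ahcy site can be compared between libraries, and at a minimum of 50 reads the gene has no site in any library.

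Gene coverage, a signal that the lists attach to each gene, was used to compare RNA amount. It is given relative to the median gene, as a multiple. In bulk libraries, fewer cells of a type and less RNA per cell cannot be told apart. Its scale per base is not stated, so no gene is ranked against another. Of 8283 genes tested with limma, 3.05% were called lower in the KO and 2.56% higher, 5.61% in all. None of the 4 genes was called at an adjusted p under 0.05, whereas 3 of the 4 had an unadjusted p under 0.05, as did 1021 genes that were lower and 903 that were higher of the 8283.

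Mat2a coverage was 8.76 and 9.72 times the median gene in the WT and 6.79 and 5.34 times in the KO. Both KO values were below both WT values, an order that 29.4% of all tested genes had. The log2 difference was -0.61 ± 0.18 (SE), a WT value 1.53 times that of the KO, with a limma adjusted p of 0.0692. It passed when only genes above the lower quartile of mean coverage were tested (-0.60, adjusted p = 0.0335), and with each library centred on all its genes (-0.66, adjusted p = 0.0447), a centring added after the data had been seen. It was -0.30 (adjusted p = 0.490) when libraries were centred on Actb, Gapdh and Eef2, and did not pass without the second WT library (adjusted p = 0.351) or the second KO library (adjusted p = 0.291). Mat2b coverage was 3.82 and 3.97 in the WT and 3.52 and 2.64 in the KO (log2 difference -0.35 ± 0.18 (SE), limma adjusted p = 0.275).

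The other 2 genes had their higher values in the KO. Mettl16 coverage was 0.580 and 0.574 in the WT and 0.724 and 0.797 in the KO, a log2 difference of 0.40 ± 0.16 (SE) with a limma adjusted p of 0.172. Ahcy coverage was 0.466 and 0.493 in the WT and 0.803 and 0.541 in the KO, a log2 difference of 0.46 ± 0.20 (SE) with a limma adjusted p of 0.197. Neither gene's groups overlapped, an order shown by 24.7% of all tested genes. The first KO library was the farther from the WT for Ahcy, and the second for Mettl16.

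**Figure D5:**
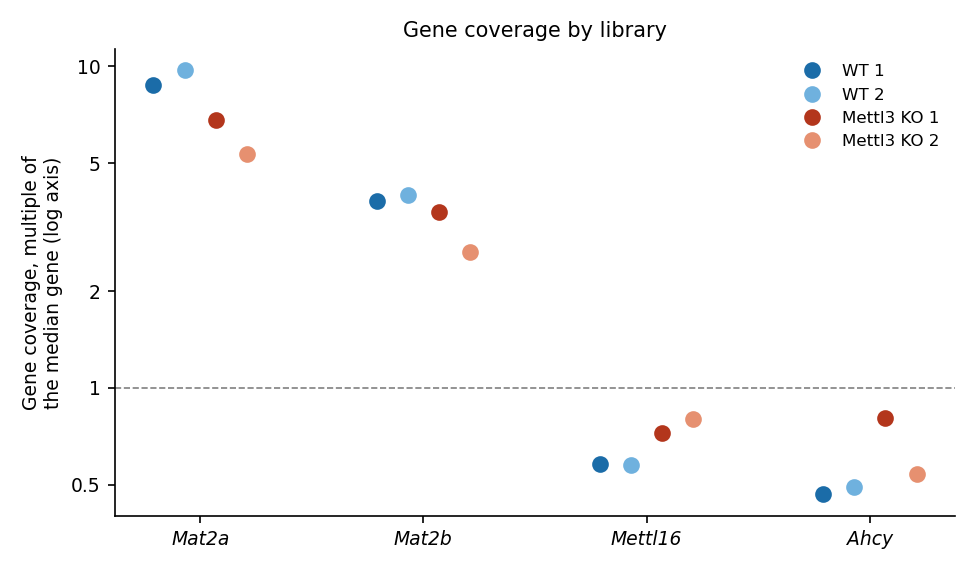
Gene coverage of the 4 genes in each library, divided by that of the median gene (log axis, points are single libraries). The KO points of Mat2a (6.79 and 5.34) and Mat2b are below their WT points, and those of Mettl16 and Ahcy are above theirs.

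The genes whose coverage pattern over the 4 libraries was most like that of Mat2a, by root mean square difference of log2 values after each gene's mean was removed, were Ywhab (0.0112), Itfg1 (0.0134) and Dpf2 (0.0161), of 8282 genes compared. Their multiples of the median gene were 5.52, 6.22, 4.33 and 3.44 for Ywhab, in the order WT 1, WT 2, KO 1 and KO 2. Their log2 differences were -0.60, -0.62 and -0.61, and none was called (limma adjusted p = 0.0730, 0.0696 and 0.0739). The 3 genes were selected for this likeness, so differences near that of Mat2a follow from the selection.

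The wider methionine and SAM network was described with a list of 44 genes, of which 27 had coverage in all 4 libraries. Of these 27, limma called 1 lower and 1 higher in the KO, beside the 3.05% and 2.56% of all genes given above. Their median log2 difference was -0.12, against -0.02 over all genes. In the methionine cycle and SAM use list 5 of 12 genes had a value and none was called. The folate arm, which supplies methyl groups, had 8 of 9 with a value, the transport list 4 of 4 and the transsulfuration list 1 of 2, again with none called. The other 2 RNAs bound by METTL16 are noncoding. Sites and gene values were assigned only to protein-coding genes, so these 2 could have neither.

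In the polyamine and methionine salvage list 6 of 10 genes had a value and 1 was called. Sms encodes spermine synthase, a user of decarboxylated SAM. Coverage of Sms fell from 2.11 and 2.33 times the median gene in the WT to 1.24 and 1.01 times in the KO. Its log2 difference was -0.99 ± 0.18 (SE), with a limma adjusted p of 0.0103. The call was lost when libraries were centred on Actb, Gapdh and Eef2 (adjusted p = 0.137) and without the second KO library (adjusted p = 0.0836).

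In the list of Mat2a RNA processing genes and METTL16 partners 3 of 5 genes had a value and 1 was called. Ythdc1, which encodes a nuclear m6A reader, rose from 1.69 and 1.65 times the median gene in the WT to 2.56 and 3.05 times in the KO. Its groups did not overlap. The log2 difference was 0.74 ± 0.17 (SE), with a limma adjusted p of 0.0297. The call was lost without centring (adjusted p = 0.123) and when any 1 of the 4 libraries was left out (adjusted p = 0.0650 to 0.148).

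The WT libraries shared 113 sites in the 44 genes, to which the noncoding RNAs could add none. Of these sites 95 (84.1%) were in neither KO list, near the 81.8% of all sites. In all 4 lists there were 4, fewer than the 6 in Mat2a alone. The methionine cycle list had 11 of 12 shared sites in neither KO list, the folate arm 24 of 29, the salvage list 26 of 29, the transport list 8 of 8 and the Mat2a RNA processing list 26 of 34. The 1 shared site of the transsulfuration list was in at least 1 KO list.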

How the data were processed

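GLORI libraries of 2 WT and 2 Mettl3 KO samples were used, each with its own deposited list. The authors' counts per site (reads with A or G, and reads with A) were used as deposited. The deposited fraction of unconverted reads equals their ratio to within rounding and is the level. Conversion is also a deposited fraction. Gene coverage is a deposited signal without a stated scale, and the deposited p-value of each site was at most 0.004. The deposited adjusted p-value served only for a stricter count of listed sites. The submitters' processing notes name mm10. Of 3160 listed sites in the promoter table of GRCm38 only 23.4% were at A, while at the same distance from the start of 3253 genes of equal length 270 of 271 (99.6%) were. Sites and gene bounds thus share 1 build that is not mm10 and not named. Aligner and site caller are not given in the sources used here. Reads may be PCR copies, and Wilson 95% intervals cover counting error only.

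Between 28 and 53 repeated entries per list, all with identical counts, were collapsed. Coverage and conversion values shared by both strands along a chromosome (18.4% to 24.3% of sites) were taken as chromosome-wide, the others as gene values. Per library, 262 to 310 genes with several values and 10 to 18 with a shared value were left out. Deposited gene names were not used, because sites often lay outside the named gene. Expected coverage in a library is a site's coverage in another library scaled by the ratio of gene coverage. The count limited by it covers only sites in protein-coding genes with a gene value in every library.

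Sites in all 4 lists with at least 20 reads entered a quasi-likelihood test of edgeR 4.0.16 (R 4.3.3) on the A and G counts, with each library as a term and genotype tested on the A share. Centred log2 gene coverage was tested with limma 3.58.1. Calls were made at a Benjamini-Hochberg adjusted p under 0.05 over all sites or genes. Tested on simulated data, the site test recovered 186 of 200 changed sites (93.0%, 4.62% of calls false) and the coverage test 200 of 200 (100%, 6.10% of calls false). Recovery of differences of the size seen in the 4 genes was not tested, so these rates do not apply to them.

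The 4 genes and the gene lists were chosen with earlier results of these data known. Sites named singly were those in all 4 lists, up to 5 per gene in both WT lists and neither KO list, by coverage, and up to 3 per gene in both KO lists and neither WT list, together with every other site in both WT lists or in 3 lists, added after their values were seen. Network genes were named where called. The planned reading of sequence motifs around sites was not run, for lack of a genome of the lists' build.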

Additional observations from a re-analysis of the deposited data

How the results depend on the processing

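All 6 Mat2a sites and the 4 coverage differences kept their direction under the alternatives run, except position 72410155, which turned to -0.0301 without the first WT library and ran up to 0.48 without the second; the cause was not tested. Same-numbered libraries did not deviate together across all tested features (correlation 0.0587 over 1557 sites and -0.0273 over 8283 genes). Whether they share a preparation is not stated. With the replicate block, 3 sites were called higher (0 without it) and Mat2a positions 72410270 and 72411233 passed (edgeR adjusted p = 0.00285 and 0.0241); Mat2a coverage did not (limma adjusted p = 0.0600). Sites called lower numbered 40, 117 with Fisher's exact test, and 0 to 159 with 1 library left out (0 without the second KO library, with 405 at an unadjusted p under 0.05). Sites called higher numbered 1 with limma, 51 with Fisher's test and 0 to 10 with 1 library left out. Fisher's test, which ignores replicate spread, called positions 72410270, 72410338 and 72411233, and the first passed without the first KO library (edgeR adjusted p = 0.0305). Genes with lower coverage numbered 253, 21 when centred on Actb, Gapdh and Eef2, 415 among genes above the lower quartile, 393 when centred on all genes and 53 to 188 with 1 library left out. Genes with higher coverage numbered 212, 101 without centring, 374 above the lower quartile and 45 to 210 with 1 library left out. The Mat2a coverage difference ran from -0.79 to -0.30, and passed at -0.60 and -0.66 as given above. The share of WT-shared Mat2a sites in the KO lists (66.7%) was 15.8% (6 of 38) to 100% (9 of 9) with 1 library left out, where 15.8% and 16.7% (6 of 36) come from counting all sites of a single WT list, and 100% from leaving out the first KO library, which lacks 3 of the 9. The KO minus WT count of listed sites was 0 for Ahcy at 50 reads, and for Mat2a turned from -7.0 to 0.5 at a level of at least 0.2. In Mat2b, Mettl16 and Ahcy 11, 1 and 0 of the sites in a single list were read at least 100 times.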

Other observations

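The gene names deposited beside the sites differ from the genes around them. Of 134 list entries inside Mat2a and on its strand, 133 carry the name of Particl, the antisense transcript of the locus, and 1 carries the name Mat2a. All 23 entries inside Ahcy carry the name Gm45609, and 86 of the 112 inside Mettl16 carry the name of Mnt. Of the 130 entries named Mat2b, 43 lie inside it. A search of the lists by name would return 6 entries for Mat2a, 1 of them inside the gene.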
